A study of Mus musculus with 18 samples.

Results

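The kinesin motor genes of mouse MII oocytes were described in 6 RNA-seq libraries. The members were taken from the oocyte gene tables by symbol: every Ensembl gene ID whose mouse symbol begins with Kif or Kifc followed by a digit, with 3 pseudogenes left out. That left 44 of 55471 gene IDs. Of these, 42 are motor genes, and 2 match by name but carry no motor: Kif1bp, a protein that binds kinesins, and Kif16bos, an antisense transcript of Kif16b. The 42 motors were sorted by known role into 15 spindle kinesins, 16 transport kinesins and 11 others.

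The series concerns Isca2, a protein of mitochondrial iron-sulfur cluster assembly, in mouse gametes and embryos. The oocyte libraries are labelled wild type (WT, 3 libraries) and Isca2 -/- (KO, 3 libraries), both described as MII oocytes. Strain, age and the number of oocytes per library are not in the labels. The only protocol given is for embryos and is repeated for the oocytes: Isca2+/- females primed with pregnant mare serum and human chorionic gonadotropin were mated with Isca2+/- males, and cDNA was amplified with a single-cell full-length kit. The labels do not say how Isca2 was disrupted or that replicates came from separate animals, so p-values measure only the spread between these libraries, which may be technical. The sperm and blastocyst samples were not used here.

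Kinesins are ATP-driven motors that walk along microtubules or take them apart. The MII oocyte waits for fertilisation with its metaphase chromosomes on a spindle built without centrosomes, and it is transcriptionally silent, so its messenger RNA was stored during growth. Spindle kinesins slide, bundle or depolymerise spindle microtubules and build the midzone for polar body extrusion, while transport kinesins carry vesicles, mitochondria and other cargo.

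The 6 libraries held from 17792138 to 30240337 rounded expected counts. Messenger RNA of Isca2 was not lower in the libraries labelled KO: it was 2.35, 2.17 and 15.4 TPM in WT replicates 1 to 3, and 5.66, 7.40 and 8.70 TPM in the libraries labelled KO. In edgeR its log2 fold change was 0.59 (SE 0.89, adjusted p = 0.907) with 6 libraries and 2.48 (SE 0.55, adjusted p = 0.0969) without WT replicate 3, where DESeq2 called it higher (adjusted p = 0.0116). TPM is a level corrected for transcript length and scaled to the same sum in every library. The labels give no deleted segment, so total Isca2 RNA may not check them. WT replicate 3 stood apart: over 13680 genes its correlations with the other libraries were 0.917 to 0.931, against 0.969 to 0.984 among those others. The summed level of 24 immune and blood markers was 2799 TPM in WT replicate 3 and 139 to 166 TPM elsewhere. There, 11 of the 24 reached 1 TPM only in WT replicate 3, and C1qa, C1qc, S100a8, S100a9 and Cd79a were at 0 in the other 5 libraries. The 12 oocyte markers summed to 29614 to 33816 TPM in all 6, a sum carried by a few abundant genes. Their median log2 fold change was −0.42 (8 of 12 below 0) and −0.20 without WT replicate 3, with 4 of 12 lower at an unadjusted p under 0.05 in edgeR, against 3.3% of all genes, none called, and 1, Ooep, called lower by DESeq2. The 15 granulosa cell markers summed to 58.9, 43.1 and 61.7 TPM in WT and 51.1, 76.5 and 113 TPM in KO. Cyp19a1 alone was at 39.0, 37.2 and 33.3 TPM in WT and 35.7, 34.6 and 28.4 TPM in KO. Of the 11 granulosa markers tested, 8 had higher values in KO and 3 lower, Cyp19a1 (log2 fold change −0.07), Ptgs2 (−3.32) and Star (−0.73). None of the 11 was called by edgeR with 6 libraries, against 0.0146% of all genes. Without WT replicate 3, 1, Inhbb, was called, against 0.651% of all genes. DESeq2 called Inhbb with 6 libraries too, and called 0.771% of the genes it tested. At an unadjusted p under 0.05 in edgeR with 6 libraries, 3 of the 11 were higher and 0 lower. Over all genes the shares were 2.89% and 3.3%. Inhbb was at 0.01, 0 and 0 TPM in WT against 0.67, 1.53 and 3.77 TPM in KO, and Hsd17b1 at 1.31, 0 and 0.62 against 2.47, 14.4 and 21.5 TPM. Inha was at 6.05, 0.15 and 0.31 TPM in WT and 0.22, 4.47 and 34.7 TPM in KO, with overlapping groups. No KO library was below a WT library for Fshr, Inhbb or Hsd17b1, while Foxl2 and Amh stayed at or under 0.12 TPM in every library. Over all genes tested, 4.93% in TPM and 6.48% in CPM had every KO library above every WT library. Results are therefore given with and without WT replicate 3. The part of the immune and granulosa markers in them was not tested.

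Upstream sequences are shown for the 3 most abundant kinesin messengers and for Kif22, which holds both searched motifs in its promoter entry, Kif2b, a spindle kinesin with no count, and the near-identical pair Kifc1 and Kifc5b. They are the 100 bases before the longest gene model begins, from RefSeq (GRCm38.p6), read 5′ to 3′ on the gene's strand. Capitals mark CCAAT, the box bound by NF-Y, which reads ATTGG on the opposite strand. The other motif searched, TTTGAA, the core of the cell cycle homology region (CHR), is in none of the stretches shown.
Kif23 (chr9:61946811-61946910, minus strand): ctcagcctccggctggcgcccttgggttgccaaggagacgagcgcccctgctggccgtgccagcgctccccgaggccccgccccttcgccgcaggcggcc
Kif20b (chr19:34922235-34922334, plus strand): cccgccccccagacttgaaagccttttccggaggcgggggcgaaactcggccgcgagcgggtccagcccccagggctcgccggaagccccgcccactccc
Kif18a (chr2:109280638-109280737, plus strand): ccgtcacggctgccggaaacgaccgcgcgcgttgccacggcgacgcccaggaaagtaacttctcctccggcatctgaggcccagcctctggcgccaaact
Kif22 (chr7:127042468-127042567, minus strand): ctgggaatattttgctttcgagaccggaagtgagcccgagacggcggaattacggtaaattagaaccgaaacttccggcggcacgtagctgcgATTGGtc
Kif2b (chr11:91577556-91577655, minus strand): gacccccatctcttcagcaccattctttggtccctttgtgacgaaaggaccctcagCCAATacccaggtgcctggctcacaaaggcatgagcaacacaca
Kifc1 (chr17:33890634-33890733, minus strand): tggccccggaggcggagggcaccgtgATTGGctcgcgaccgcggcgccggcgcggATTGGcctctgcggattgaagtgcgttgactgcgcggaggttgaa
Kifc5b (chr17:26916991-26917090, plus strand): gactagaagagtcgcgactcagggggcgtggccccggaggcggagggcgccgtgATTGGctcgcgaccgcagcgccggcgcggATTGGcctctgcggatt

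A promoter entry was found for 33 of the 42 motors. Both motifs were searched on both strands of the 250 bases before the start site of each entry. For Kif23, Kif20b and Kif22 the gene model begins 11, 23 and 47 bases before that site, so some searched bases lie inside it, among them the CCAAT match of Kif23 and 1 TTTGAA match of Kif22. In the stretches shown no match overlaps another. CCAAT was in 33.8% of all 32851 promoter entries and in 9 of 14 spindle, 3 of 10 transport and 4 of 9 other kinesins. TTTGAA was in 16.0% of all entries, in 5 of 14 spindle kinesins (Kif11, Kif14, Kif15, Kif22 and Kif2c), 1 of 10 transport kinesins and 2 of 9 others. Kif20b and Kif18a held neither motif in these bases, and Kif2b held CCAAT. A letter match is a description and not a binding site.

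The kinesin messengers of the oocyte were dominated by 3 spindle motors. Kif23, Kif20b and Kif18a had mean levels over 100 TPM, and together they made up 64.2% to 68.4% of the summed TPM of all 42 motors in each library. Another 13 motors lay between 10 and 100 TPM (7 spindle kinesins, 5 transport kinesins and Kif24), 8 lay between 1 and 10 TPM, and 18 lay under 1 TPM.

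**Figure D1:**
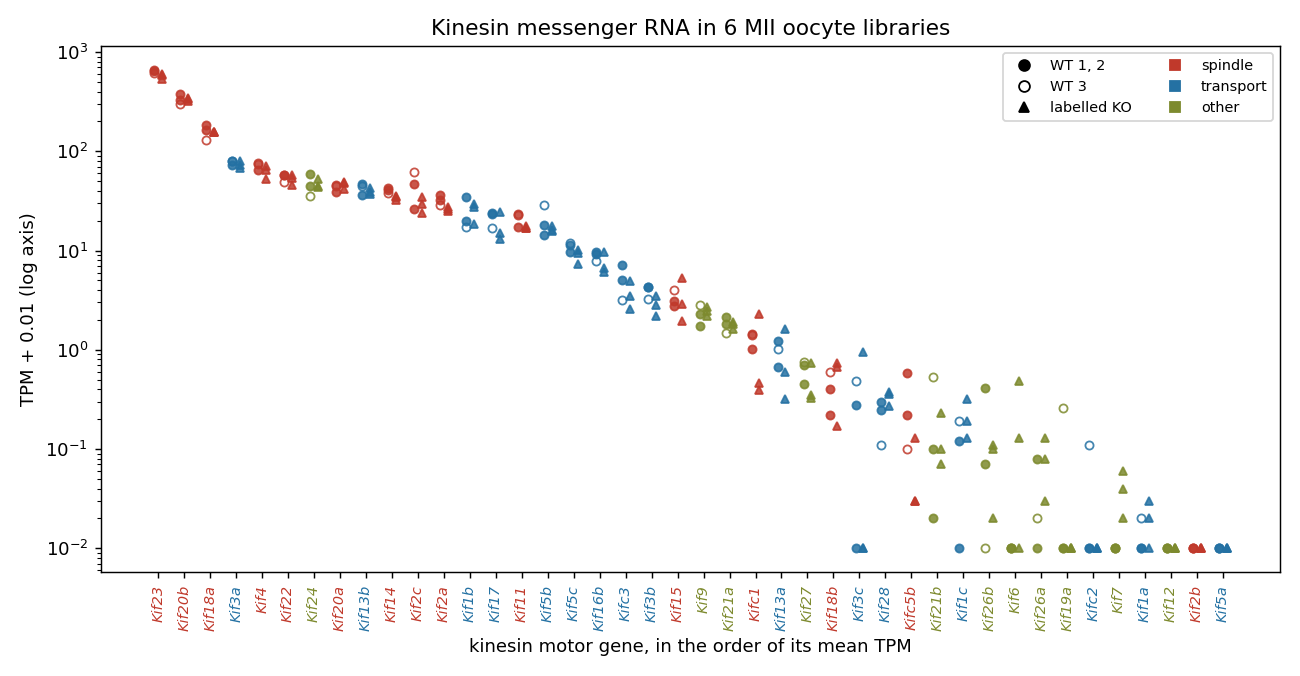
Level of each kinesin motor gene in each of the 6 oocyte libraries, in TPM + 0.01 on a log axis, with circles for WT, an open circle for WT replicate 3 and triangles for the libraries labelled KO. Kif23, Kif20b and Kif18a stand above the other motors in every library, and the WT and KO symbols lie near each other for most genes above 1 TPM. The libraries spread more widely for Kifc1 (6.03-fold from lowest to highest), Kifc3 (2.74-fold), Kif15 (2.71-fold) and Kif2c (2.59-fold).

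Kif23 encodes the kinesin of centralspindlin, which organises the spindle midzone in cytokinesis and polar body extrusion. The gene lies on chromosome 9 (61917277 to 61946810 in GRCm38.p6). Its level was 661, 638 and 613 TPM in WT and 591, 605 and 539 TPM in the libraries labelled KO. In TPM every KO library lay below every WT library. In CPM, counts scaled to the TMM-adjusted library size without regard to length, the groups overlapped, and WT replicate 3 with 585 CPM was the lowest of the 6. Its mean of 608 TPM placed it 246th among all gene IDs.

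Kif20b, a midzone kinesin of the kinesin-6 family needed late in cytokinesis, was second (chromosome 19, 34922335 to 34975750). Its level was 327, 374 and 302 TPM in WT and 319, 344 and 337 TPM in the libraries labelled KO. The KO libraries lay inside the WT range. Kif18a, which dampens the movements of chromosomes at the metaphase plate, was next (chromosome 2, 109280738 to 109341749). It was at 164, 185 and 131 TPM in WT and 157, 157 and 155 TPM in the libraries labelled KO, again inside the WT range.

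At rank 4 was a transport motor, Kif3a, a subunit of heterotrimeric kinesin-2, best known from cilia. Kif3a was at 78.9, 71.9 and 79.5 TPM in WT and 79.3, 67.8 and 72.3 TPM in the libraries labelled KO, with overlapping groups. Its partner subunit Kif3b was far lower, at 4.31, 4.28 and 3.24 TPM in WT and 3.48, 2.79 and 2.16 TPM in the libraries labelled KO. The ratio of Kif3a to Kif3b in TPM was 16.8 to 33.5 over the 6 libraries. Part of this ratio comes from the assigned lengths, 1756 to 1997 bases for Kif3a and 5635 bases for Kif3b. In CPM the distance was smaller, with means of 95.5 for Kif3a and 16.5 for Kif3b in WT, and 96.7 and 12.3 in KO. The other possible partner, Kif3c, had 0 counts in 3 libraries and at most 12, and the accessory subunit Kifap3 had a mean level of 0.975 TPM. Messenger of Kif3a was thus well above that of its partner subunits in every library.

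Kif4, a chromokinesin that acts on chromosome arms and the midzone, was at rank 5. It was at 74.9, 65.5 and 76.6 TPM in WT and 71.0, 65.0 and 53.2 TPM in the libraries labelled KO. In TPM these 5 genes held ranks 1 to 5 among the motors, in this order, in 6 of 6 libraries. Their mean levels differed from the next by 1.82, 2.11, 2.11, 1.11 and 1.26 times. This order depends on the assigned lengths, which were 1756 to 1997 bases for Kif3a and 4792 to 4941 bases for Kif4. In CPM Kif4 was above Kif3a, with means of 258 and 95.5 in WT and 237 and 96.7 in KO. Kif23 and Kif20b were closer in CPM, with means of 666 and 602 in WT and 644 and 603 in KO. Below these 5 genes the order in TPM was loose. Kif22, the chromokinesin also called Kid (mean 53.7 TPM), was above Kif24 (46.7 TPM), a centriolar kinesin, in 5 of 6 libraries. Kif24 was above Kif20a, a midzone kinesin (44.6 TPM), in 3 of 6, and Kif20a was above Kif13b, a vesicle motor (41.2 TPM), in 4 of 6.

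Kif14, a cytokinesis motor (37.4 TPM), was above Kif2c in 4 of 6 libraries. Kif2c encodes MCAK, a kinesin that depolymerises microtubules at centromeres. Of the 16 motors with a mean over 10 TPM it had the highest ratio of highest to lowest library (2.59), at 46.6, 26.0 and 61.9 TPM in WT and 34.9, 29.6 and 23.9 TPM in the libraries labelled KO, so that its rank moved between 6 and 13. Kif2a, the related depolymerase of spindle poles (29.4 TPM), and Kif1b (24.7 TPM), a motor of mitochondria and vesicles, kept their order in 5 of 6. Kif17 (19.5 TPM), Kif11 (19.2 TPM) and Kif5b (18.4 TPM) could not be ordered. Kif17 was above Kif11 in 3 of 6 libraries, and Kif11 was above Kif5b in 3 of 6. Kif11 is the kinesin-5 that pushes spindle poles apart, and Kif5b is the main conventional kinesin outside nerve cells. Kif11 itself was at 23.4, 17.4 and 23.0 TPM in WT and 17.6, 16.8 and 16.8 TPM in the libraries labelled KO.

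Motors between 1 and 10 TPM were Kif5c (9.97 TPM), Kif16b (8.20), Kifc3 (4.39), Kif3b (3.38), Kif15 (3.32), Kif9 (2.35), Kif21a (1.78) and Kifc1 (1.16), each a mean over 6 libraries. Kif15, which shares the pole-separating role of Kif11, was thus well below it. The libraries are counted without known strand, so reads of Kif16b and of its antisense transcript Kif16bos cannot be told apart; Kif16bos had at most 2 counts in a library. Kif1bp, the binding protein without a motor, had a mean of 7.0 TPM and a log2 fold change of 0.0094.

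Among the 18 motors under 1 TPM were 3 spindle kinesins, 7 transport kinesins and 8 others. Kif12, Kif2b and Kif5a had 0 counts in all 6 libraries, which, at a limit of 3 counts a library, allows up to 0.0992 to 0.169 CPM, counting error only. Kif1a, the axonal vesicle motor, had at most 2 counts. Kif5a and Kif1a are known as neuronal motors. Kif7, which acts in hedgehog signalling at the cilium tip, had 0 counts in each WT library and 4, 2 and 1 in the libraries labelled KO, too few to be tested. Kif19a and Kifc2 had counts only in WT replicate 3 (9 and 6).

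Kifc1 (HSET), the minus-end motor that focuses spindle poles, has a near-identical relative on the same chromosome, Kifc5b. Their upstream stretches, aligned over 222 columns, were identical at 201 and differed by 11 mismatches and 10 gap positions (90.5% identity), and both printed stretches hold the same pair of ATTGG boxes. Reads shared by the pair could be divided between them by the authors' counting, so both levels are uncertain. Kifc1 had 27, 33 and 61 rounded counts in the WT libraries, against 6, 32 and 23 in those labelled KO. Kifc5b had 10, 2 and 1 counts in the WT libraries, against 1 in each library labelled KO. With either gene, the messenger of this motor was among the lowest of the expressed spindle kinesins.

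Summed by role, the spindle kinesins were at 1482, 1485 and 1374 TPM in WT and 1359, 1386 and 1279 TPM in the libraries labelled KO. The mean was 1447 ± 62.9 TPM (SD, n = 3) in WT and 1341 ± 55.4 TPM (SD, n = 3) in KO, and the groups overlapped through WT replicate 3. The transport kinesins summed to 204, 228 and 215 TPM in WT and 213, 200 and 177 TPM in the libraries labelled KO, with means of 216 ± 11.7 and 197 ± 18.1 TPM (SD, n = 3 each). These groups overlapped as well. The other kinesins were at 51.6 ± 11.3 TPM in WT and 52.1 ± 4.77 TPM in KO (SD, n = 3 each). Spindle kinesins made up 84.4% ± 0.866 (SD, n = 3) of the motor messenger in WT and 84.4% ± 0.551 (SD, n = 3) in KO. The ratio of spindle to transport TPM was 6.72 ± 0.467 in WT and 6.85 ± 0.424 in KO (SD, n = 3 each). In bulk libraries like these, fewer cells of a type and less RNA per cell cannot be told apart.

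**Figure D2:**
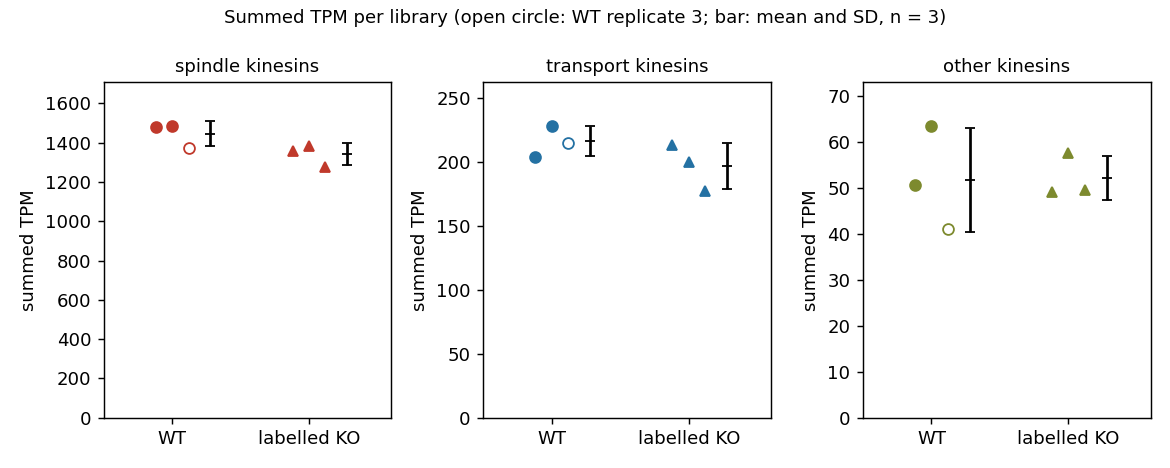
Summed TPM of spindle, transport and other kinesins in each library, with WT replicate 3 as an open circle and the mean and SD of each group (n = 3) as a bar; each axis starts at 0. Spindle kinesins sit between 1279 and 1485 TPM, transport kinesins between 177 and 228 TPM, and the groups overlap in all 3 panels.

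Genotypes were then compared gene by gene on counts with edgeR's quasi-likelihood test over 13680 genes, with Benjamini-Hochberg adjustment and a threshold of 0.05. No kinesin passed. Of the 42 motors, 31 passed the filter on low counts (13 spindle, 12 transport and 6 other), and none of the 31 was called in either direction, against 0.0146% of all genes (2 lower, 0 higher). At an unadjusted p under 0.05 the motors called were also 0, against 2.89% of all genes higher and 3.3% lower. DESeq2 and limma-voom called 0 motors, against 0.771% and 0.0146% of the genes they tested. The smallest adjusted p of any motor in edgeR was 0.767, that of Kif2c.

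The most abundant motors had small fold changes with narrow errors. For Kif23 the KO to WT difference on the log2 scale was −0.05 (SE 0.12, edgeR adjusted p = 0.942). Leaving out WT replicate 3 gave −0.13 (SE 0.09, adjusted p = 0.645). Kif20b gave 0.0017 (SE 0.15, edgeR adjusted p = 0.998) and Kif18a 0.04 (SE 0.17, adjusted p = 0.976). Both values turned negative without WT replicate 3, at −0.13 and −0.12. Kif3a was at 0.02 (SE 0.11), Kif24 at 0.02 (SE 0.19) and Kif22 at −0.02 (SE 0.14), and the sign of each turned in at least 1 alternative or with 1 library left out. Kif4 was at −0.12 (SE 0.11), Kif14 at −0.16 (SE 0.12) and Kif13b at −0.11 (SE 0.14), while Kif20a was at 0.14 (SE 0.13). A missed threshold does not show that levels were equal, and these standard errors leave room for modest differences.

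Kif2c had the smallest p among the motors with lower values in KO. Its log2 fold change was −0.50 (SE 0.26, edgeR adjusted p = 0.767). It rested in part on WT replicate 3, the highest library for this gene with 115 CPM against 91.0 CPM in the next. Without that library the value was −0.25 (SE 0.21, edgeR adjusted p = 0.739). Without WT replicate 2, the lowest WT library for this gene, it was −0.74 (SE 0.18, edgeR adjusted p = 0.417). Kif11 (−0.23, SE 0.13), Kif3b (−0.42, SE 0.26) and Kif2a (−0.24, SE 0.15) followed, with edgeR adjusted p of 0.784, 0.787 and 0.787. Toward higher values, the smallest p were those of Kif20a, Kif28 (0.68, SE 0.65), Kif1c (0.92, SE 1.23) and Kif18b (0.46, SE 0.71), the last 3 of them transcripts under 1 TPM with large errors. Kifc1 was at −0.78 (SE 0.73, edgeR adjusted p = 0.842).

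**Figure D3:**
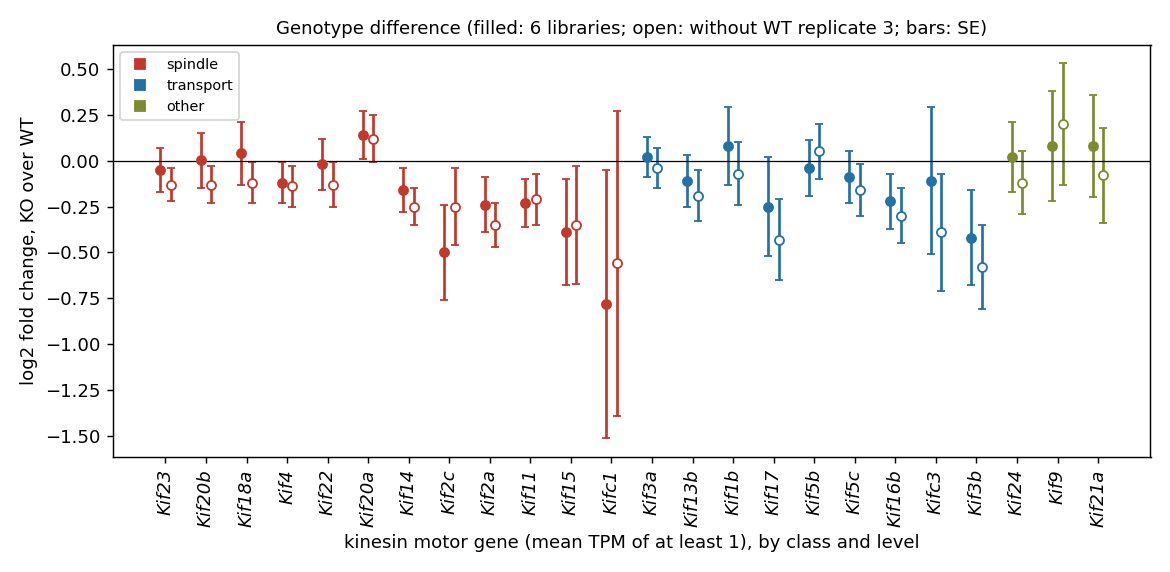
Log2 fold change of KO over WT for the 24 motors with a mean of at least 1 TPM, with bars of 1 SE, from edgeR; filled symbols use 6 libraries and open symbols leave out WT replicate 3. The most abundant motors lie close to 0 with short bars, Kif2c lies at −0.50 with 6 libraries and −0.25 without WT replicate 3, and the widest bars are those of Kifc1.

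By role, the median log2 fold change was −0.12 for spindle kinesins (4 above 0, 9 below), −0.10 for transport kinesins (4 above, 8 below) and −0.10 for the others (3 above, 3 below). Over all genes tested the median was −0.04, with 54.6% below 0. Spindle and transport kinesins had similar medians and similar shares below 0. No motor had every KO library below, or every KO library above, every WT library in CPM among the 31 tested. Over all genes tested, 5.96% had every KO library below and 6.48% every KO library above. In TPM, 3 of the 31 motors had every KO library below every WT library (Kif2a, Kif23 and Kif14), against 7.3% of all genes.

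Without WT replicate 3 the kinesins again gave no call, while 0.651% of 14122 genes were called (0.574% higher and 0.0779% lower). At an unadjusted p under 0.05, 3 of 32 motors were lower and 0 higher, against 3.89% of genes lower and 7.68% higher. They were Kif2a (−0.35, SE 0.12, edgeR adjusted p = 0.272), Kif3b (−0.58, SE 0.23, adjusted p = 0.356) and Kif14 (−0.25, SE 0.10, adjusted p = 0.365). For Kif2a the levels were 32.0 and 36.6 TPM in WT replicates 1 and 2, 29.1 TPM in WT replicate 3, and 27.7, 26.2 and 25.1 TPM in the libraries labelled KO. The median was −0.14 for spindle kinesins (2 above 0, 11 below) and −0.19 for transport kinesins (3 above, 10 below), against 0.01 over all genes with 48.5% below 0. In CPM every KO library lay below both remaining WT libraries for 7 of 32 motors (Kif2a, Kif23, Kif14, Kif5c, Kif3b, Kif16b and Kif13b), against 13.1% of all genes. None lay above in CPM, against 15.4% of all genes. In TPM the motors below differed in part. There, 7 of 32 lay below (Kif2a, Kif18a, Kif22, Kif23, Kif14, Kif3b and Kifc3), against 14.5% of all genes. In TPM 1 motor, Kif1c, lay above, against 13.4% of all genes. Among motors with a mean of at least 1 TPM, 11 of 12 spindle and 8 of 9 transport kinesins had a negative value, against 49.4% of the 11563 genes at that level. None of these differences passed the adjusted threshold.

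WT replicate 3 bore on the motors unevenly. Of the 24 motors with a mean of at least 1 TPM, it had the lowest CPM of the 6 libraries for 11 and the highest for 3 (Kif2c, Kif5b and Kifc1). Kif21b, under 1 TPM on average, had 92 counts there and 2 to 28 elsewhere. How far the immune and blood RNA of that library contributed to these counts was not tested.

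The length that the counting program assigned to each gene also shaped the levels. It weights the isoforms, so a gene's length can differ between libraries. For 12 of the 24 motors the longest and shortest estimates were within 1.1 times, and for the others they were further apart. Kif23 was steady (1572 to 1650 bases). For Kif1b the estimate ran from 4671 to 6769 bases, and its highest and lowest libraries were 2.0 times apart in TPM but 1.66 times in CPM. For Kif5b it ran from 3898 bases in WT replicate 3 to 5291, with a 2.0-fold range in TPM and 1.38-fold in CPM. Kif15 had a 2.71-fold range in TPM and 1.62-fold in CPM. For Kif2c the lengths were steady (2788 to 2842 bases), and its range stayed wide on both scales, 2.59-fold in TPM and 2.17-fold in CPM.

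**Figure D4:**
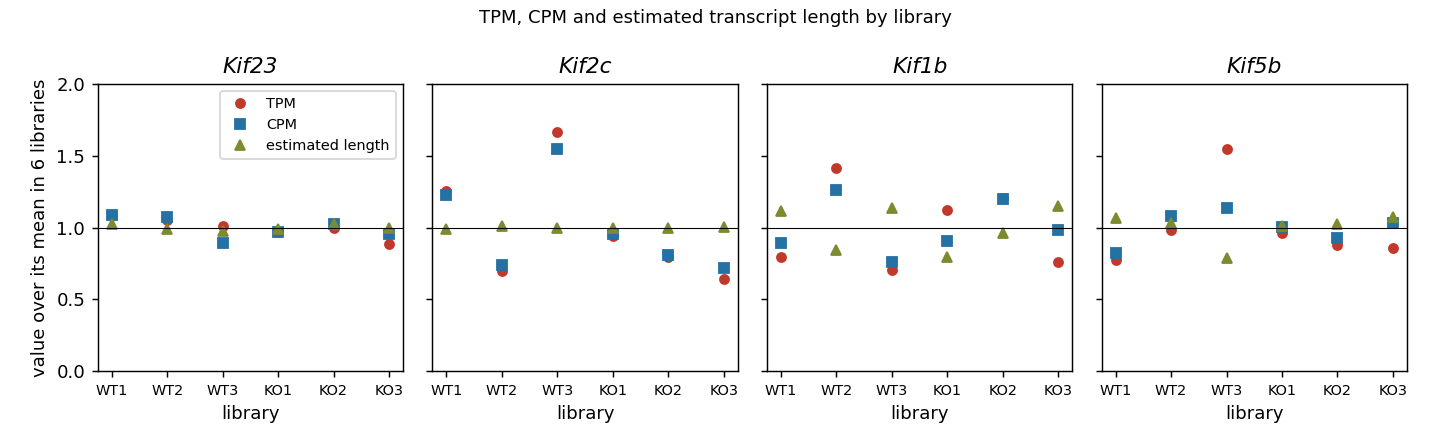
TPM (circles), CPM (squares) and assigned length (triangles) of Kif23, Kif2c, Kif1b and Kif5b in each library, each divided by its mean over the 6 libraries. For Kif5b in WT replicate 3 and for Kif1b the TPM departs from the CPM where the length does, while for Kif2c the length stays flat and both scales move together.

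Proteins that work with the kinesins gave no call in edgeR with 6 libraries. Of 13 light chains and cargo adaptors, 11 were tested, with a median log2 fold change of −0.16 (2 above 0, 9 below). Without WT replicate 3 the median was −0.31 (3 above, 8 below). Over all genes the medians were −0.04 and 0.01. The conventional kinesin light chains were low, at 4.47 TPM for Klc1, 0.533 for Klc2 and 0.492 for Klc4, and Klc3 was listed at 0. The smallest p were those of Mapk8ip3, an adaptor of axonal transport (−0.81, SE 0.41, edgeR adjusted p = 0.767), and Map7d1, a microtubule protein that recruits kinesin-1 (−0.72, SE 0.55, adjusted p = 0.807).

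Among the spindle partners, Prc1, which bundles midzone microtubules and recruits Kif4, had a mean of 715 TPM, Tpx2, a spindle assembly factor, 201 TPM, and Racgap1, the partner of Kif23 in centralspindlin, 69.9 TPM. The kinetochore kinesin Cenpe, whose symbol falls outside the naming rule, was at 133 TPM. All 30 spindle partners were tested, with a median log2 fold change of −0.0092, and −0.11 (23 of 30 below 0) without WT replicate 3. At an unadjusted p under 0.05 in edgeR, 1 was higher and 3 lower, against 2.89% and 3.3% of all genes. The smallest p were those of Kntc1, a kinetochore protein of the spindle checkpoint (−0.46, SE 0.17, edgeR adjusted p = 0.766), and Aurkb, the kinase of the chromosomal passenger complex (−1.14, SE 0.44, adjusted p = 0.766). Without WT replicate 3 Kntc1 was at −0.53 and Aurkb at −0.60. In TPM the groups overlapped for Kntc1, at 13.8, 15.6 and 20.7 in WT and 21.6, 15.9 and 10.8 in KO. Its assigned length ran from 4442 bases in WT replicate 1 to 2179 in KO replicate 1.

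Dynein, the minus-end motor that works against many kinesins, and its activator dynactin were tested with 27 of 27 genes. Their median log2 fold change was −0.30 (8 above 0, 19 below), against −0.04 over all genes with 54.6% below 0. Without WT replicate 3 the median was −0.04 (12 above 0, 15 below), against 0.01 over all genes with 48.5% below 0. Bicd1, a dynein cargo adaptor, was at 0.02, 0.03 and 0.14 TPM in WT and 1.19, 1.39 and 0.75 TPM in the libraries labelled KO. Every KO library lay above every WT library, at low levels, as for 4.93% of all genes in TPM. Its log2 fold change was 3.50 (SE 0.85, edgeR adjusted p = 0.615), and without WT replicate 3 it passed the threshold at 4.82 (SE 0.75, adjusted p = 0.0278). Dynlt1b, a dynein light chain, was at 139, 74.0 and 233 TPM in WT and 312, 315 and 285 TPM in the libraries labelled KO, again without overlap. Its log2 fold change was 1.18 (SE 0.32, edgeR adjusted p = 0.747) with 6 libraries and 1.57 (SE 0.21, adjusted p = 0.0186) without WT replicate 3. DESeq2 called both with 6 libraries, at adjusted p of 0.00701 and 0.0123, against 0.771% of the genes it tested. Without WT replicate 3, limma-voom called Dynlt1b (adjusted p = 0.0123) and not Bicd1 (adjusted p = 0.415). Dynlt1b has near-identical copies among which reads could be divided, so its value is uncertain. The copies Dynlt1a, Dynlt1c and Dynlt1f had log2 fold changes of 0.06, −0.0018 and −0.0046 with 6 libraries, with overlapping groups. Without WT replicate 3 they were at 0.18, 0.41 and 0.47. Dynlt1f was at 47.9, 33.2 and 97.9 TPM in WT and 52.7, 65.6 and 44.3 TPM in KO. The lack of overlap is thus that of Dynlt1b alone, and the copies were not tested together. No other gene of the list was called in edgeR with or without WT replicate 3. Over all genes, edgeR called 0.574% higher without WT replicate 3. At an unadjusted p under 0.05 in edgeR with 6 libraries, 2 of the 27 were higher and 2 lower. Over all genes the shares were 2.89% and 3.3%.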

How the data were processed

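RNA-seq of 3 WT and 3 KO MII oocyte libraries was analysed, grouped by sample title. Per the file headers, the authors' tables hold RSEM expected counts, TPM and FPKM per Ensembl gene, with assigned gene lengths in bases. The deposited FPKM values were not used. The submitters' processing notes name mm10/GRCm38 and, in no stated order, DESeq2 1.42.1, RSEM 1.3.1, STAR 2.6.1c, Trim Galore 0.4.5. The annotation release and the strand setting are not given in the sources used here. RSEM divides reads among near-identical genes.

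Symbols were matched for 55144 of 55471 IDs. Levels are the TPM deposited by the authors. Expected counts were rounded and tested in R 4.3.3 with edgeR 4.0.16, by its quasi-likelihood method (filterByExpr, TMM factors, genotype as the only term, Benjamini-Hochberg adjustment over all genes, threshold 0.05). The edgeR fit was also run on counts simulated with large planted changes. The simulated counts held no library like WT replicate 3, so that run does not bear on it or on small differences. Alternatives used RLE factors, library totals, DESeq2 1.42.0, limma 3.58.1 (voom, or log2(TPM + 1) and log2(TPM + 0.1)), other filters, a replicate block, and each library left out in turn. The standard error is the log2 fold change divided by the root of F.

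The members and lists were chosen with earlier results of these data known. Named genes are the 10 highest motors by mean TPM, the 4 smallest p in each direction, Kifc1 and Kifc5b, and the 2 smallest p of each partner list; other motors are placed by their level. RefSeq (GRCm38.p6) gave the promoter stretches and gene coordinates.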

Additional observations from a re-analysis of the deposited data

How the results depend on the processing

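No kinesin was called under any setting. Calls over all genes, 2 with 6 libraries in edgeR, were 121 with DESeq2, 12 with log2(TPM + 1), 13 with log2(TPM + 0.1), and 1 to 92 with 1 library left out, 92 being without WT replicate 3. DESeq2 and limma-voom without WT replicate 3, chosen after seeing the data, called 471 and 11 genes. Of 304 combinations of 18 named motors and an alternative, 274 kept the direction. The 30 that turned belonged to motors with values near 0 in the 6-library edgeR fit, from −0.05 (Kif23) to 0.04 (Kif18a). The turned values themselves reached −0.13, for Kif20b and Kif24 without WT replicate 3. The cause was not tested. With library totals, Kif20b was −0.05, Kif18a −0.01, Kif3a −0.04 and Kif24 −0.03. With at least 1 CPM in 3 libraries, Kif20b was −0.0034. With log2(TPM + 1) and log2(TPM + 0.1), Kif20b was −0.00037 and −0.00036, Kif18a −0.02 and Kif3a −0.07 in both, and the transport median was −0.26 in the second. Leaving out 1 library, the 2 added fits included, gave −0.14 to 0.01 for Kif23, −0.14 to 0.07 for Kif22, −0.13 to 0.12 for Kif20b, −0.12 to 0.21 for Kif18a, −0.05 to 0.06 for Kif3a and −0.13 to 0.19 for Kif24. Within these ranges, the added DESeq2 and limma-voom fits gave −0.13 and −0.13 for Kif20b, −0.12 and −0.11 for Kif18a, −0.05 in both for Kif3a, and −0.12 and −0.13 for Kif24. Leaving out 1 library moved the spindle median between −0.17 and −0.05 and the transport median between −0.19 and −0.0031. As CPM per kilobase, sums were 1107 for spindle and 164 for transport kinesins, against 1394 and 206 TPM, by construction of the scale.

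Same-numbered WT and KO libraries had deviations that correlated by 0.0979, −0.108 and 0.00249, and 2 of 6 libraries correlated best with their own number, so the numbers were not taken as pairs. With the replicate block 2 genes and 0 kinesins were called. With 3 libraries a group, the edgeR standard errors were 0.11 to 0.26 for most abundant motors. Differences larger than their standard error could be missed as well. With 6 libraries, Bicd1 at 3.50 (SE 0.85, edgeR adjusted p = 0.615) and Dynlt1b at 1.18 (SE 0.32, adjusted p = 0.747) did not pass. Motors under 1 TPM rest on too few counts for any statement on direction.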
